A study of Rattus norvegicus with 12 samples.

Results

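The genes described here mark the blood vessels of the brain: the endothelial cells that line them and the mural cells (pericytes and smooth muscle cells) that wrap them. A list of 38 genes was drawn up from known markers and sorted by role into endothelial identity, tight junctions, transport across the blood-brain barrier, and mural cells. A gene was taken as measured where the array annotation gave a probe set that single symbol and the probe set averaged above 4 on the log2 scale over the 12 arrays. The probe set with the highest mean stood for the gene. In this way 32 of the 38 genes were measured, out of 14847 genes tested: 13 of 17 for endothelial identity, 3 of 3 for tight junctions, 6 of 6 for barrier transport and 10 of 12 for mural cells. Pecam1, Kdr, Eng, Ly6c1, Rgs5os and Acta2 had no probe set with that single symbol in the annotation used here and were not analysed here.

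The tissue was the dissected prefrontal cortex (PFC) of adult male Sprague-Dawley rats, with 6 rats in the Stress group and 6 in the Control group and 1 Affymetrix Rat Gene ST array per rat. Stress rats went through a footshock (FS) session of 40 min at 0.8 mA, of which 20 min were actual shock, with gaps of 2 to 8 s between shocks, and their PFC was taken 2 h after the session began. Control rats stayed undisturbed in the home cage. Values are log2 expression after RMA, a procedure that corrects background, equalises the intensity distribution of the arrays and combines the probes of a probe set, so that 1 unit is a doubling.

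Brain endothelial cells are joined by tight junctions, which close the path between cells, and they carry nutrients, hormones and iron across by dedicated transporters while efflux pumps return many compounds to the blood. Mural cells sit in the basement membrane around the endothelial tube. Pericytes are drawn to it by PDGF-B, which the endothelium releases and the receptor PDGFR-beta on the pericyte binds, and smooth muscle cells of arterioles set the vessel diameter. In the adult brain these cells are a minority, so that their transcripts are diluted in a sample of whole cortex.

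The levels of the defining markers were checked on every array, without a detection call, which these values do not give. Of the defining endothelial markers, 4 of 6 were measured (Cdh5, Cldn5, Tie1 and Flt1) and lay between 5.95 and 8.27 on every array. Of the defining mural markers, 5 of 6 were measured (Pdgfrb, Tagln, Myh11, Abcc9 and Notch3) and lay between 5.45 and 7.51, the lowest of them below the array medians, which ran from 5.48 to 5.54. Pairs of arrays correlated at 0.9941 to 0.9982 across probe sets. The 2000 dimmest probe sets divided the arrays in another way than the groups did: Control 1 to 4 stood apart on their first principal component (30.5% of the variance), and Control 5 and 6 lay with the 6 Stress arrays. The labels name no batch that matches this division. No Stress array lay with Control 1 to 4, so the main comparison of all Stress with all Control rats was partly confounded with the division. Differences are therefore also given within the second array set (6 Stress against Control 5 and 6) and for the Stress rats against Control 1 to 4. Control 5 was also apart in its choroid plexus genes, epithelial markers of the tissue that makes cerebrospinal fluid. Their mean level was 4.85 to 5.02 in Stress rats and 4.85 to 7.67 in Control rats, and the highest value was that of Control 5.

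No vessel gene passed the threshold of an adjusted p of 0.05 in limma's test (smallest adjusted p 0.197), where 0.0435% of all probe sets did. At an unadjusted p under 0.05, 9 of the 32 members were counted (28.1%), against 6.35% of all probe sets. The counts leaned to one side. Lower in Stress rats at that level were 8 members (25%, against 2.92% of all probe sets): Tie1, Emcn, Egfl7, Ocln, Tfrc, Slco1c1, Slco1a4 and Pdgfrb. Higher was 1 member, Tinagl1 (3.12%, against 3.43%). By mean alone, 19 members lay lower in Stress rats and 13 higher (59.4% lower, against 47.0% of all probe sets), and the median difference was −0.05 on the log2 scale, beside a median of 0.00 over all probe sets. No test was made of these shares, since the members were chosen with earlier results of these data known. In bulk tissue, fewer cells of a type and less RNA per cell cannot be told apart.

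**Figure D1:**
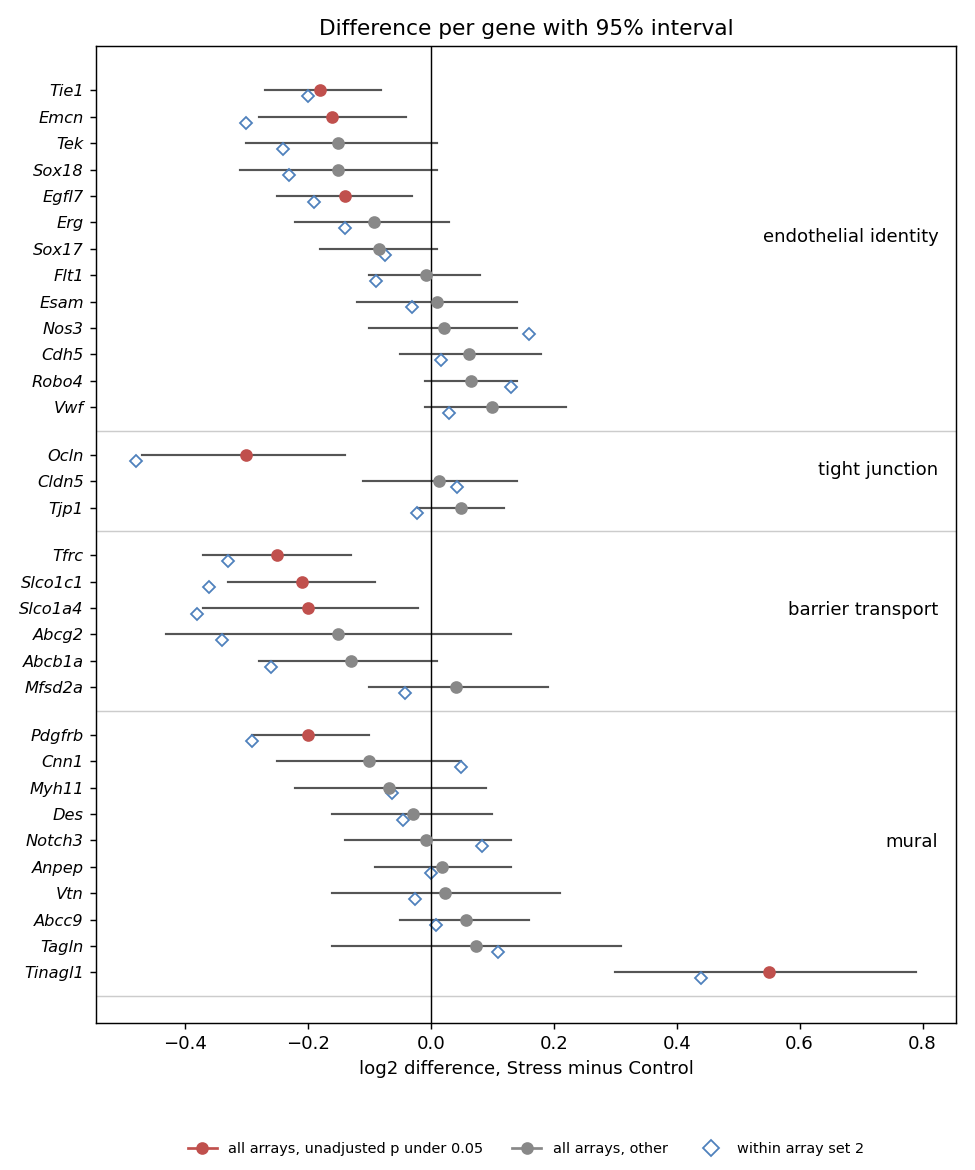
Log2 difference, Stress minus Control, of the 32 measured vessel genes with its 95% interval from limma (6 rats a group), ordered by role, with red for an unadjusted p under 0.05 and blue diamonds for the difference within the array set of the 6 Stress rats and Control 5 and 6. Most endothelial and transport members lie left of 0, and Tinagl1 has the only clearly positive difference at 0.55.

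Of the 13 genes of endothelial identity, 8 lay lower and 5 higher in Stress rats, with a median of −0.08. At an unadjusted p under 0.05 in limma, none were higher and 3 were lower (23.1%, against 2.92% of all probe sets). Tie1, an orphan receptor tyrosine kinase that works together with the angiopoietin receptor Tek, had the smallest p of these. It ran from 5.95 to 6.11 in Stress rats (median 6.05) and from 6.08 to 6.31 in Control rats (median 6.20). All Stress rats except Stress 1 lay below every Control rat. The means were 6.04 ± 0.059 in Stress and 6.21 ± 0.089 in Control rats (SD, n = 6 each), a difference of −0.18 (SE 0.044), or 0.89-fold, with an adjusted p of 0.33 in limma and a two-sided exact permutation p of 0.00433.

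Emcn encodes endomucin, a sialomucin of the endothelial surface. It was tightly grouped in Stress rats, from 6.49 to 6.58 (median 6.53), and spread from 6.46 to 6.86 in Control rats (median 6.71). Of the Control rats, 5 lay above every Stress rat and Control 3 lay below them all. The difference was −0.16 (SE 0.056, adjusted p 0.638 in limma, exact permutation p 0.026). Egfl7, a protein that endothelial cells secrete into the vessel matrix, ran from 6.36 to 6.54 in Stress rats (median 6.42) and from 6.43 to 6.68 in Control rats (median 6.62). It differed by −0.14 (SE 0.05, adjusted p 0.668 in limma, exact permutation p 0.0281), and the groups overlapped at Control 3 and 4.

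The promoters of these 3 genes are shown as those of the endothelial identity genes with an unadjusted p under 0.05 in limma. The ETS family, which includes the member Erg, is known to act at endothelial promoters. The sequences are from RefSeq, run 5′ to 3′ along the gene from 250 bases before to 50 bases after its start, and have capitals at each AGGAAG (the ETS core) or its reverse complement CTTCCT, and in Egfl7 also at AGAACA (a half-site of the glucocorticoid receptor).
Tie1 promoter (GRCr8, chr5:137304932-137305231, minus strand): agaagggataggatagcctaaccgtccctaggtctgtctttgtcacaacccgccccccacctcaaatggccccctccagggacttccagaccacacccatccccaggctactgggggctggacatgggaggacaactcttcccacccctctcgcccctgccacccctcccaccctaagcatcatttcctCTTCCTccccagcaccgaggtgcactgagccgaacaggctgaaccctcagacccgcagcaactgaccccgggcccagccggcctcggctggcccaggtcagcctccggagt
Emcn promoter (GRCr8, chr2:228564289-228564588, plus strand): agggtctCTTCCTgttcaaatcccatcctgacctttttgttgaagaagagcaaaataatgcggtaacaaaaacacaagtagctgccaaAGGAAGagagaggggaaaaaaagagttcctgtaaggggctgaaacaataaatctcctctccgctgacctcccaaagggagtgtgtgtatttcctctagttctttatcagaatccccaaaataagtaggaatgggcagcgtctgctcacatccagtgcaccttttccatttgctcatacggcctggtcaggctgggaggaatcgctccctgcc
Egfl7 promoter (GRCr8, chr3:29805381-29805680, plus strand): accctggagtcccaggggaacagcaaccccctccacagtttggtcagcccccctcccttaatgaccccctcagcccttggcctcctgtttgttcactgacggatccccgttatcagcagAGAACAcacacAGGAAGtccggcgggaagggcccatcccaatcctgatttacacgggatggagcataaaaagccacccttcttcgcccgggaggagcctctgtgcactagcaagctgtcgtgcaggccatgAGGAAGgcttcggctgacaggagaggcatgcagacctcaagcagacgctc
Of the measured members, 21 had a promoter in the table and 11 were not matched. Both strands were searched, and a promoter was counted once if it held the motif on either. The ETS core was in 11 of 22 member promoters (Egfl7 has a pair of them, and the one not printed holds none of the motifs searched) and in 34.5% of all promoters of this length. It was in 7 of 8 promoters of endothelial identity genes, 0 of 3 of tight junction genes, 3 of 4 of barrier transport genes and 1 of 7 of mural genes. Those of endothelial identity included Robo4, Erg, Nos3 and Flt1, which differed by 0.07, −0.09, 0.02 and −0.01. None of these came under an unadjusted p of 0.05 in limma. AGAACA was in 1 of the 22, the Egfl7 promoter printed here, and in 20.7% of all. The CArG box, which smooth muscle genes often carry, was in 0 of 22 and in 1.6% of all. The smooth muscle genes Tagln and Myh11 were among the members not matched, so their promoters were not searched. A match of letters is a description of the window.

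The other endothelial identity genes did not come under an unadjusted p of 0.05. Tek ran from 6.72 to 7.13 in Stress rats (median 7.09) and from 7.0 to 7.35 in Control rats (median 7.19). Its difference of −0.15 (SE 0.072, adjusted p 0.806 in limma) was −0.08 without Stress 4, the lowest rat. Sox18, a transcription factor of endothelial development, ran from 5.78 to 6.05 in Stress rats (median 5.83) and from 5.71 to 6.20 in Control rats (median 6.05), and differed by −0.15 (SE 0.076, adjusted p 0.806). Robo4, an endothelial guidance receptor, ran from 4.66 to 4.78 in Stress rats (median 4.71) and from 4.57 to 4.72 in Control rats (median 4.64), a difference of 0.07 (SE 0.037, adjusted p 0.824). Nos3, endothelial nitric oxide synthase, ran from 5.98 to 6.16 in Stress rats (median 6.11) and from 5.89 to 6.26 in Control rats (median 6.08), a difference of 0.02 (SE 0.057, adjusted p 0.975).

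The remaining 6 endothelial identity genes differed by −0.09 to 0.10. Cdh5, the cadherin of endothelial adherens junctions, differed by 0.06, and Flt1, a VEGF receptor, by −0.01. Esam, an adhesion molecule, differed by 0.01, and Vwf, the von Willebrand factor, by 0.10. The transcription factors Sox17 and Erg differed by −0.08 and −0.09. All 6 had adjusted p-values in limma of 0.811 or above, which does not show that the groups were alike.

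Of the 3 tight junction genes, 1 was lower at an unadjusted p under 0.05 (33.3%, against 2.92% of all probe sets). Ocln encodes occludin, a membrane protein of the junction strand that other cells of the brain also express. Occludin ran from 6.08 to 6.36 in Stress rats (median 6.20) and from 6.31 to 6.81 in Control rats (median 6.47). All Stress rats except Stress 3 lay below every Control rat, and Control 5 was the highest. The means were 6.20 ± 0.10 in Stress and 6.51 ± 0.19 in Control rats (SD, n = 6 each). The difference of −0.30 (SE 0.077, 95% interval −0.47 to −0.14) was the most negative among the members, at 0.81-fold, with an adjusted p of 0.33 in limma and an exact permutation p of 0.00433. Without Control 5 it was −0.24. The promoter of Ocln is shown as the tight junction gene with this difference. It holds none of the motifs searched.
Ocln promoter (GRCr8, chr2:33441149-33441448, minus strand): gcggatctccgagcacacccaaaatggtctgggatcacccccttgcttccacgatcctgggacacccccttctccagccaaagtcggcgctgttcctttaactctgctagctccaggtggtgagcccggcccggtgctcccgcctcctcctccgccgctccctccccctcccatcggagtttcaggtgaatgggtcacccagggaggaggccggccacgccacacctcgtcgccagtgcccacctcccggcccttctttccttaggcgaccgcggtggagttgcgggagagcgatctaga

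Cldn5 and Tjp1 did not go with Ocln. Cldn5 encodes claudin-5, the main claudin of the blood-brain barrier. It ran from 6.69 to 6.91 in Stress rats (median 6.80) and from 6.62 to 6.97 in Control rats (median 6.76), so that the groups overlapped throughout. Its difference of 0.01 had a 95% interval of −0.11 to 0.14. Tjp1 encodes ZO-1, the scaffold under the junction. It ran from 9.47 to 9.57 in Stress rats (median 9.53) and from 9.42 to 9.56 in Control rats (median 9.46), a difference of 0.05 (SE 0.034, adjusted p 0.867 in limma).

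Barrier transport had the lowest median of the roles, −0.17, with 5 of 6 genes lower and 3 lower at an unadjusted p under 0.05 (50%, against 2.92% of all probe sets). In whole cortex the values do not show which cells the transcripts of these 6 genes came from. Tfrc encodes the transferrin receptor, through which iron enters the brain. It ran from 8.28 to 8.49 in Stress rats (median 8.42) and from 8.56 to 8.88 in Control rats (median 8.62). The groups did not overlap, which was so for 0.131% of all probe sets in this direction, and Control 6 was the highest. The means were 8.41 ± 0.081 in Stress and 8.66 ± 0.12 in Control rats (SD, n = 6 each), a difference of −0.25 (SE 0.056, 95% interval −0.37 to −0.13), or 0.84-fold. The adjusted p was 0.224 in limma, and 0.196 to 0.421 with 1 rat left out in turn. The exact permutation p of 0.00216, unadjusted, is the smallest that 6 against 6 rats can give. It follows from the lack of overlap and adds nothing to it. The promoter of Tfrc is shown for this gene, with capitals at its single ETS core.
Tfrc promoter (GRCr8, chr11:81690269-81690568, minus strand): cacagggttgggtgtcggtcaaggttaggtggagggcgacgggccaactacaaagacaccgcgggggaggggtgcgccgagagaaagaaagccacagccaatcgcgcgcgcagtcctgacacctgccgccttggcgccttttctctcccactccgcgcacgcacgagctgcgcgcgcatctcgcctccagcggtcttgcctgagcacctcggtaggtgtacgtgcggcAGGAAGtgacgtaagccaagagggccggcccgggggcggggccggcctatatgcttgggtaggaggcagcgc

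Slco1c1 and Slco1a4 encode organic anion transporters of brain capillaries. The first carries thyroxine, and the second carries a range of organic anions. Slco1c1 ran from 8.40 to 8.56 in Stress rats (median 8.51) and from 8.52 to 8.90 in Control rats (median 8.70). Only Control 3 lay within the range of the Stress rats. The difference was −0.21 (SE 0.056, adjusted p 0.381 in limma, exact permutation p 0.00433), or 0.87-fold. Slco1a4 ran from 7.53 to 7.77 in Stress rats (median 7.68) and from 7.59 to 8.10 in Control rats (median 7.92), with Control 1 and 3 among the Stress rats. It differed by −0.20 (SE 0.081, adjusted p 0.738 in limma, exact permutation p 0.0606).

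The efflux pumps, which return drugs and other compounds to the blood, did not come under an unadjusted p of 0.05. Abcb1a, the P-glycoprotein of rodent capillaries, ran from 7.54 to 7.72 in Stress rats (median 7.65) and from 7.57 to 7.97 in Control rats (median 7.80), a difference of −0.13 (SE 0.068, adjusted p 0.806 in limma). Abcg2, the breast cancer resistance protein, ran from 4.37 to 5.02 in Stress rats and from 4.69 to 5.31 in Control rats and differed by −0.15 (SE 0.13, adjusted p 0.897). Mfsd2a, which takes up lysophospholipids that carry omega-3 fatty acids, was the transport gene without a lower mean, at a difference of 0.04 (adjusted p 0.957).

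**Figure D2:**
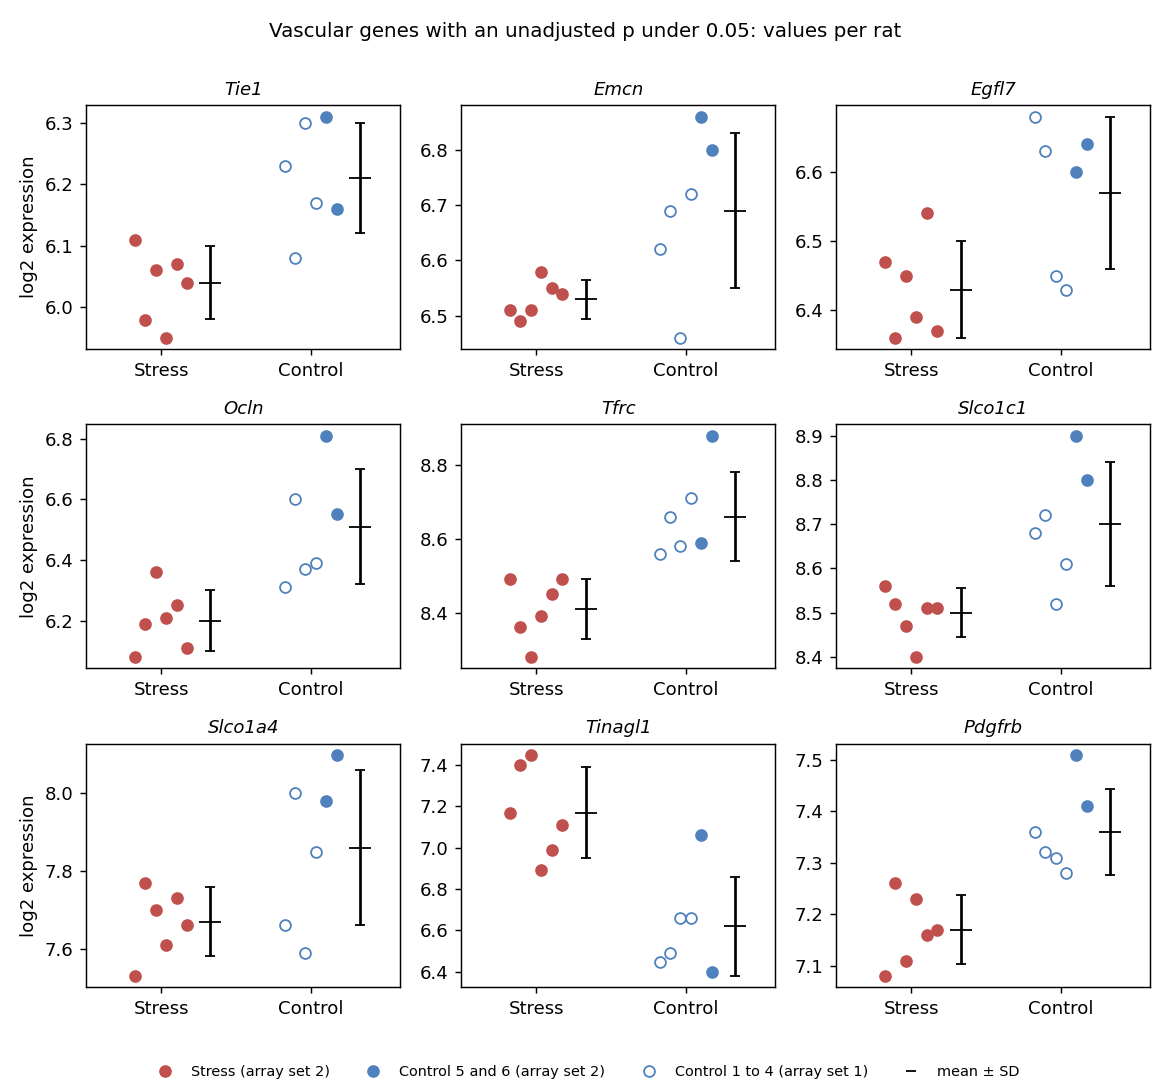
Log2 expression per rat of the 9 vessel genes with an unadjusted p under 0.05, Stress left and Control right, with 1 dot per rat and bars at mean ± SD (n = 6 a group). Filled blue dots are Control 5 and 6 and open dots Control 1 to 4, and in Tfrc and Pdgfrb no dot of the Stress group reaches the Control group.

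The mural genes were evenly divided, with 5 higher and 5 lower and a median of 0.01, but included Pdgfrb and Tinagl1, which lay on opposite sides. Pdgfrb, the receptor that marks pericytes, ran from 7.08 to 7.26 in Stress rats (median 7.16) and from 7.28 to 7.51 in Control rats (median 7.34). As in Tfrc, the groups did not overlap. The means were 7.17 ± 0.067 in Stress and 7.36 ± 0.084 in Control rats (SD, n = 6 each), a difference of −0.20 (SE 0.044, 95% interval −0.29 to −0.10), or 0.87-fold, with an adjusted p of 0.239 in limma and an exact permutation p of 0.00216.

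Tinagl1 encodes a secreted glycoprotein of the extracellular matrix that vascular smooth muscle produces. It ran from 6.89 to 7.45 in Stress rats (median 7.14) and from 6.40 to 7.06 in Control rats (median 6.57). Of the Stress rats, 4 lay above every Control rat, and Control 5 was the only Control rat that reached the Stress range. The means were 7.17 ± 0.22 in Stress and 6.62 ± 0.24 in Control rats (SD, n = 6 each). The difference was 0.55 (SE 0.12, 95% interval 0.30 to 0.79), or 1.46-fold, with an adjusted p of 0.197 in limma and an exact permutation p of 0.00649. Without Control 5 it was 0.63 and its adjusted p was 0.0323, the only case among the single rats left out in which a member passed the threshold. Its promoter, shown as that of the member with the smallest p, has a single ETS core in capitals and no CArG box.
Tinagl1 promoter (GRCr8, chr5:147807214-147807513, minus strand): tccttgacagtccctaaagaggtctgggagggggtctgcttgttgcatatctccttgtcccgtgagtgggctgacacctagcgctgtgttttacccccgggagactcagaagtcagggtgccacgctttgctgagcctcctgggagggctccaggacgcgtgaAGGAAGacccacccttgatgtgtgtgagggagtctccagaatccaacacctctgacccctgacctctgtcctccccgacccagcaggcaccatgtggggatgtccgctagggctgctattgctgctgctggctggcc

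The contractile and pericyte markers beside them differed by −0.10 to 0.07. Myh11, the smooth muscle myosin, differed by −0.07, Tagln (transgelin) by 0.07, and Cnn1 (calponin) by −0.10. Without Control 5, Cnn1 differed by −0.16, with an unadjusted p of 0.00946 and an adjusted p of 0.66 in limma. Notch3, the Notch receptor of mural cells, differed by −0.01, and Abcc9, a potassium channel subunit of pericytes, by 0.06. The second probe sets of Notch3 and Abcc9 differed by −0.05 and 0.02. Vtn (vitronectin) differed by 0.02, Des (desmin) by −0.03, and Anpep (aminopeptidase N) by 0.02. All adjusted p-values of these genes in limma were 0.867 or above. Tagln and Vtn were highest in Stress 2 (7.03 and 7.19) and next highest in Stress 3 (6.86 and 7.13), so that their spread over the Stress rats was more than their difference between groups. The 14 meningeal fibroblast genes measured, markers of the brain's coverings, had list means of 5.69 to 6.78 in Stress and 5.94 to 6.74 in Control rats, and were also highest in Stress 2. Of them, 7 lay higher and 7 lower, and none reached an unadjusted p under 0.05 in limma. Their part in the mural values was not tested.

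Across rats the roles differed in which rats were high. For each role, every gene was centred on its mean over the 12 rats and the centred values were averaged. For barrier transport this mean was −0.13 to −0.02 in Stress rats and −0.07 to 0.23 in Control rats. Control 5 (0.228), Control 6 (0.188) and Control 2 (0.119) were the highest, while Control 1 and 3 lay within the Stress range. For endothelial identity it was −0.10 to 0.04 in Stress and −0.04 to 0.08 in Control rats, and for tight junctions −0.11 to 0.03 in Stress and −0.02 to 0.12 in Control rats, each with Control 6 at the top. For the mural genes it was −0.06 to 0.14 in Stress and −0.12 to 0.04 in Control rats, with Stress 2 and 3 at the top. Over the 32 members, Control 6 was the highest of the 12 rats for 8 and Control 5 for 6, counts without a share over all probe sets beside them.

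**Figure D3:**
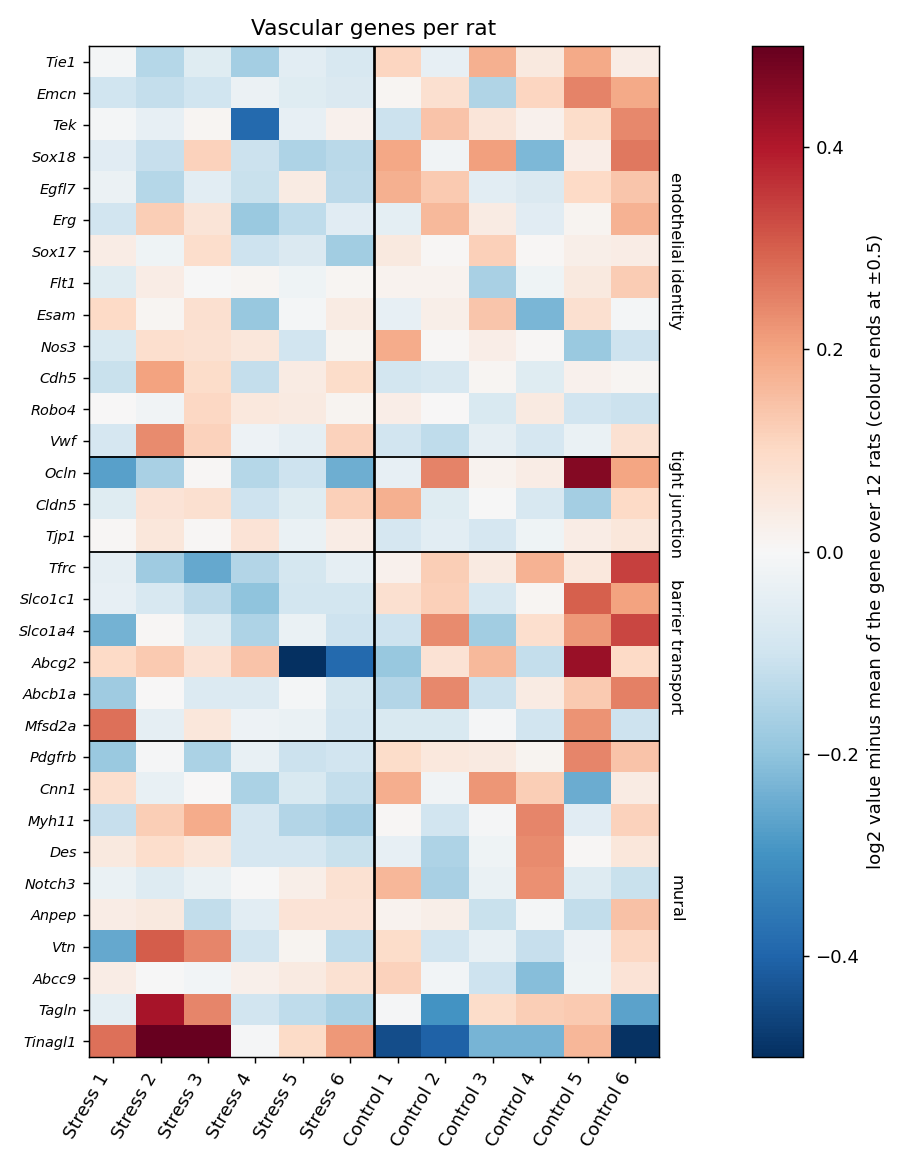
Log2 expression of the 32 vessel genes minus each gene's mean over the 12 rats, with genes in rows by role and rats in columns, Stress left of Control. Control 5 and 6 are above the mean in much of the transport block, where Control 5 averages 0.228, and Tinagl1 is highest in Stress 2 and 3.

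Of the 8 members lower at an unadjusted p under 0.05, 7 had their highest Control value in Control 5 or 6. No share over all probe sets stands beside this count. Within the array set of these controls and the Stress rats the differences were −0.20 for Tie1, −0.30 for Emcn, −0.19 for Egfl7, −0.48 for Ocln, −0.33 for Tfrc, −0.36 for Slco1c1, −0.38 for Slco1a4, −0.29 for Pdgfrb and 0.44 for Tinagl1, all at an unadjusted p under 0.05. This comparison reuses rats by which these members were picked, so it is no independent check. A further 5 members came under 0.05 there, of which Tek (−0.24), Sox18 (−0.23) and Abcb1a (−0.26) were lower and Robo4 (0.13) and Nos3 (0.16) higher. This made 14 members (against 6.57% of all probe sets), 11 lower (34.4%, against 4.0%) and 3 higher (against 2.57%). None passed the adjusted threshold (smallest adjusted p 0.14 in limma, for Emcn and Slco1c1), where 0.00622% of all probe sets did. These values rest on 2 Control rats. The median of the transport genes was −0.33 in this set, beside 0.00 for all probe sets. Since Control 5 is in this set, all 17 choroid plexus genes were lower there too, 15 of them at an unadjusted p under 0.05 in limma, with a median of −1.30, and their part in the vessel genes' values was not tested.

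Against Control 1 to 4, which also reuses rats by which these members were picked, the differences of the 8 were −0.16 for Tie1, −0.10 for Emcn, −0.12 for Egfl7, −0.22 for Ocln, −0.22 for Tfrc, −0.14 for Slco1c1, −0.11 for Slco1a4 and −0.15 for Pdgfrb. At an unadjusted p under 0.05 were 5 of these, Tie1, Ocln, Tfrc, Slco1c1 and Pdgfrb, and with Cnn1 (−0.18) 6 members were lower at that level (18.8%, against 3.71% of all probe sets). Higher at that level were 3 members (against 5.41% of all probe sets): Tinagl1 (0.60), Vwf (0.14) and Tjp1 (0.09). The median of the transport genes was −0.09. In this comparison the groups and the array sets cannot be told apart. In the main comparison they can be told apart only through Control 5 and 6.

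Markers of other cell types differed between the groups too. The 10 blood cell genes measured were all lower in Stress rats, with a median difference of −0.63. None passed the adjusted threshold in limma, and 7 had an unadjusted p under 0.05 (70%, against 2.92% of all probe sets lower). Their list means were 5.85 to 6.38 in Stress and 6.08 to 7.12 in Control rats, highest in Control 3 and 4. Within the second array set 9 blood cell genes lay lower and 1 higher (median −0.44). Against Control 1 to 4 all 10 lay lower (median −0.71). The 17 choroid plexus genes were all lower by mean (median −0.51), none at that level in limma. Without Control 5 their median difference was 0.00, and that of the transport genes −0.15. All 11 striatal projection neuron genes measured were lower (median −0.41), 1 of them at an unadjusted p under 0.05 (9.09%, against 2.92% of all probe sets). Their list means were 6.40 to 7.73 in Stress and 6.44 to 8.00 in Control rats. All 13 oligodendrocyte genes measured were higher (median 0.15), 3 of them at that level (23.1%, against 3.43% of all probe sets). Their list means were 9.02 to 9.31 in Stress and 8.79 to 9.33 in Control rats, highest in Control 4 and lowest in Control 1. Within the second array set 10 oligodendrocyte genes lay higher and 3 lower (median 0.06). Against Control 1 to 4 all 13 lay higher (median 0.17). Genes of astrocytes, whose endfeet cover the vessels, were evenly divided at 6 higher and 6 lower of 12 measured. At that level 1 was higher and 1 lower (8.33% each). Their list means were 9.43 to 9.57 in Stress and 9.42 to 9.62 in Control rats. Of 14 microglia and macrophage genes measured, 8 lay higher and 6 lower (median 0.03), with 2 higher (14.3%) and 1 lower (7.14%) at that level. Of 9 genes of cortical excitatory neurons, 6 lay higher and 3 lower (median 0.04), none at that level. The part of these cell types in the vessel genes' values was not tested.

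**Figure D4:**
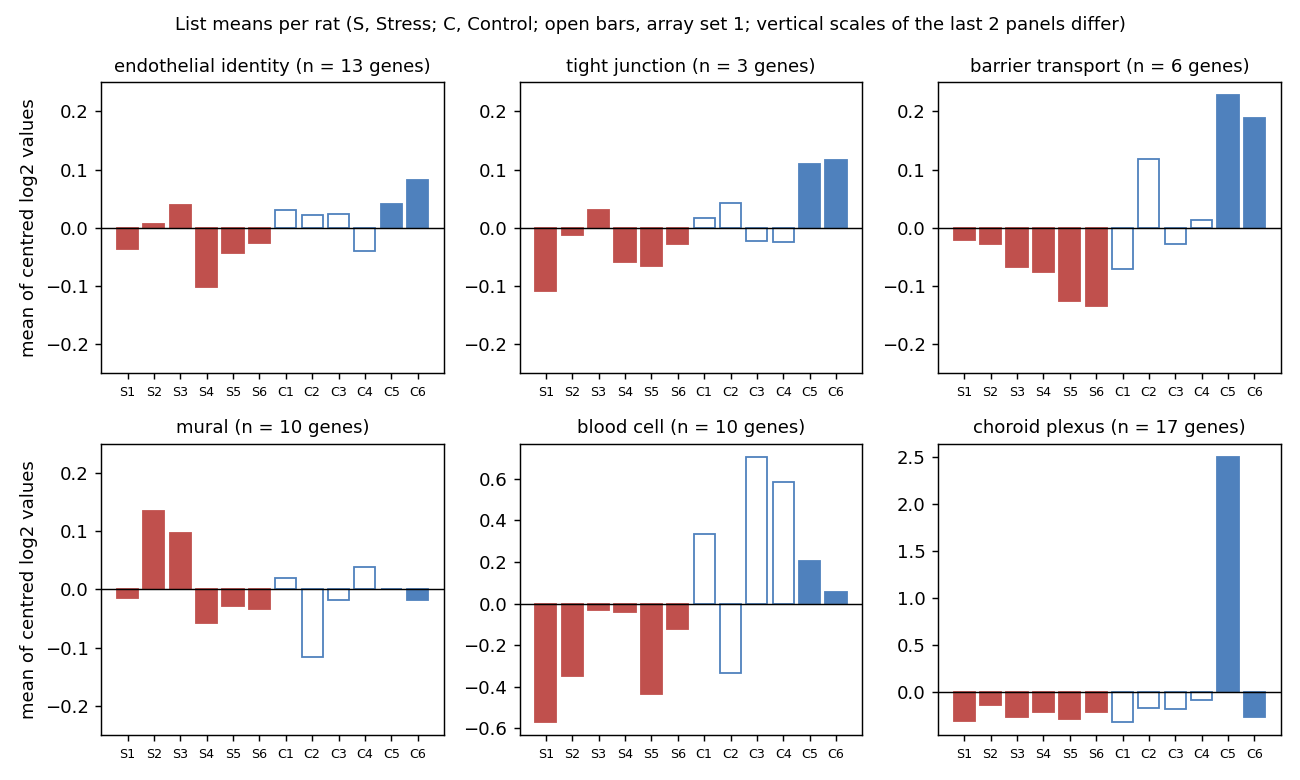
Mean of centred log2 values per rat for the 4 roles of vessel genes and for the blood cell and choroid plexus markers, Stress rats left of Control rats, the last 2 panels on another scale. Control 5 stands at 2.504 for choroid plexus genes and at 0.228 for barrier transport.

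Of the wider vascular pathways, 109 further genes were measured in 7 lists, of which 58 lay higher and 51 lower in Stress rats (median 0.00). None passed the adjusted threshold in limma. At an unadjusted p under 0.05, 4 were higher (3.67%, against 3.43% of all probe sets) and 7 lower (6.42%, against 2.92%). Among 15 other barrier transporters and receptors, 8 lay higher and 7 lower (median 0.00). They held the related genes of smallest p, in opposite directions. Slc2a1 encodes GLUT1, the glucose transporter of barrier endothelium and astrocytes. It ran from 10.02 to 10.23 in Stress rats (median 10.12) and from 9.75 to 9.96 in Control rats (median 9.88), without overlap (so for 0.311% of all probe sets in this direction), a difference of 0.25 (SE 0.048), or 1.19-fold, with an adjusted p of 0.137 in limma. Slc38a5, an amino acid transporter that carries glutamine, ran from 4.30 to 4.44 in Stress rats (median 4.37) and from 4.52 to 4.76 in Control rats (median 4.66), also without overlap. It differed by −0.27 (SE 0.051), or 0.83-fold, with an adjusted p of 0.123 in limma, at a level near the filter of 4. Within the second array set the differences were 0.26 for Slc2a1 and −0.27 for Slc38a5, close to those over all rats.

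Of 23 genes of Notch and Wnt signalling in brain vessels, 8 lay higher and 15 lower (median −0.02). At an unadjusted p under 0.05, 1 was higher (4.35%, against 3.43% of all probe sets) and 3 lower (13.0%, against 2.92%). Notch4, the Notch receptor of endothelium, ran from 5.94 to 6.06 in Stress rats (median 5.97) and from 5.58 to 5.88 in Control rats (median 5.82). The groups did not overlap, and the difference was 0.20 (SE 0.047, adjusted p 0.259 in limma), or 1.15-fold. Notch1, its broadly expressed relative, differed by −0.12 (SE 0.039, adjusted p 0.615). Of 14 ligands and co-receptors of the VEGF, angiopoietin and PDGF pathways, 10 lay higher and 4 lower (median 0.02). Vegfb, a ligand of Flt1, ran from 8.54 to 8.78 in Stress rats (median 8.74) and from 8.70 to 9.04 in Control rats (median 8.91), and differed by −0.18 (SE 0.057, adjusted p 0.578). Angpt2, a ligand of Tek, differed by 0.13 (adjusted p 0.859 in limma).

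**Figure D5:**
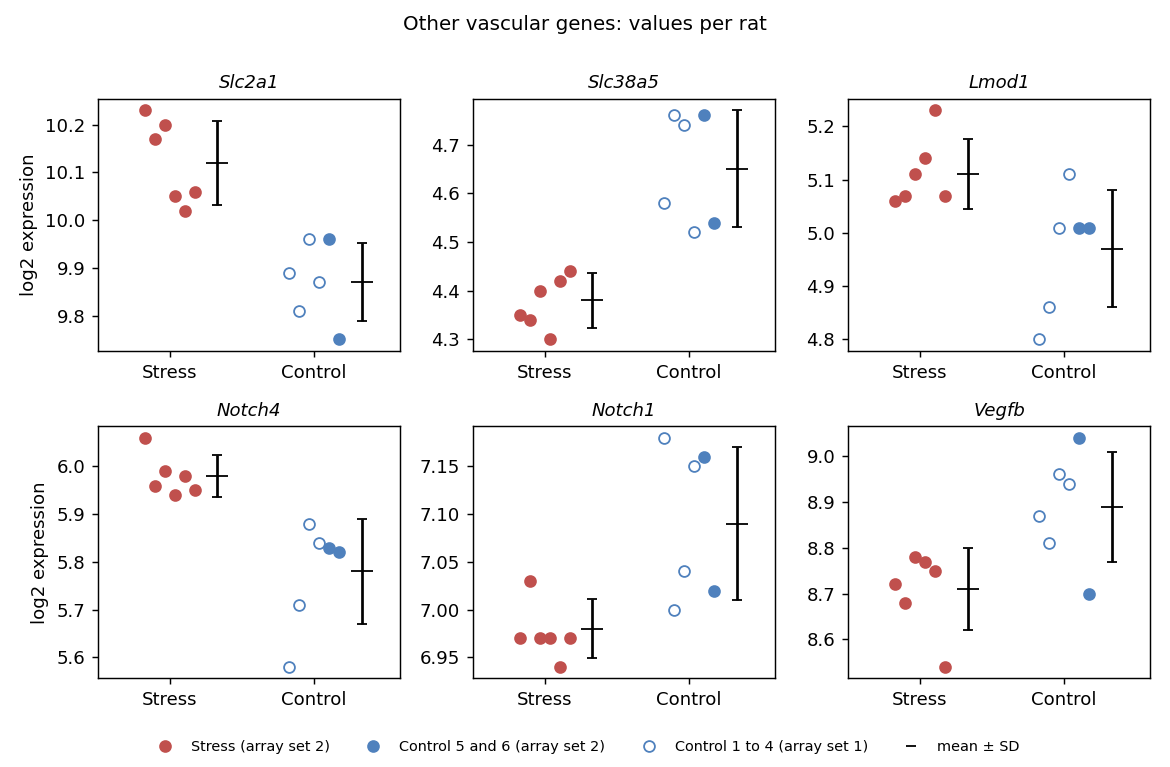
Log2 expression per rat of 6 genes of related pathways (Slc2a1, Slc38a5, Lmod1, Notch4, Notch1 and Vegfb), Stress left and Control right, with 1 dot per rat and bars at mean ± SD (n = 6 a group). Slc2a1 and Notch4 are higher, and Slc38a5 lower, in all Stress rats than in any Control rat.

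The remaining lists held few genes at that level. Of 17 other tight and adherens junction genes, 6 lay higher and 11 lower (median −0.02), and Jam3, a junctional adhesion molecule, differed by 0.15 (adjusted p 0.738 in limma) and Ctnnd1, a catenin that binds cadherins, by 0.07 (adjusted p 0.844). Of 8 genes of caveolae and vesicle transport, 6 lay higher and 2 lower (median 0.07), with Cavin2, a caveolar coat protein, at 0.12 (adjusted p 0.811) and Pacsin3, a membrane-bending protein, at 0.06 (adjusted p 0.84). Of 11 genes of leukocyte adhesion and coagulation, 6 lay higher and 5 lower (median 0.00), with Selplg, the P-selectin ligand of leukocytes, at −0.07 (adjusted p 0.738) and Plat, tissue plasminogen activator, at 0.10 (adjusted p 0.867). Of 21 other pericyte and smooth muscle genes, 14 lay higher and 7 lower (median 0.02). Lmod1, an actin-nucleating protein of smooth muscle, differed by 0.15 (adjusted p 0.66), and Tpm2, a tropomyosin, by 0.10 (adjusted p 0.813).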

How the data were processed

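The authors deposited log2 expression per probe set from RMA, and the submitters' processing notes name oligo version 1.58.0. RMA equalises the arrays' intensity distributions, so a shift shared by most genes is removed, and differences of dim probe sets are understated. Groups and replicate numbers came from the sample labels. Of 29214 probe sets, 18644 had exactly 1 symbol in the platform annotation, 962 several, and 9608 were not listed there. Of the 1-symbol probe sets, 99.0% had a gene identifier through which a RefSeq table of GRCr8 gave the current symbol. No source used here gives the annotation's genome build, so no probe set coordinates are printed. Those of promoters are RefSeq's on GRCr8. Arrays carry no read depth, and their number limits the precision.

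Here, lmFit and eBayes of limma (version 3.58.1, R 4.3.3) compared Stress with Control, two-sided, over the 16085 single-symbol probe sets with a mean above 4, with Benjamini-Hochberg adjustment over all of them and an adjusted p of 0.05 as threshold. The script was tested on simulated data. Single members also had an exact permutation test of the difference of means over all labellings, computed for all 32. Its p-values are unadjusted, and it treats all labellings alike although Control 1 to 4 stood apart from the other arrays. Members with an unadjusted p under 0.05 in the comparison or within the second array set, and the 2 of smallest p in each role, are given in full. Of each related list, the 2 genes of smallest p are named, some with their difference and adjusted p only. The members and lists were chosen with earlier results of these data known. The comparison with Control 1 to 4 was added after seeing the data. Alternatives were other filters, all probe sets, array set as a term or restriction, the replicate number as a block, each rat left out, a trended robust prior, median centring and the mean over a gene's probe sets.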

Additional observations from a re-analysis of the deposited data

Results flagged for a closer look

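Single rats stood apart from the other 5 of their group, by a gap that was large against the group's range (Dixon's criterion), in 6 of the 62 genes checked, in 124 groups of 6. These were the members and the genes of smallest p in each list, and the other genes of the lists were not checked one by one. Chance alone marks about 1 in 20 such groups. Tek was 6.72 in Stress 4, against 7.07 to 7.13 in the other Stress rats. Notch4 was 6.06 in Stress 1, against 5.94 to 5.99 in the others. Sox17 was 6.08 in Control 3, against 5.97 to 6.01 in the other Control rats. Mfsd2a was 8.36 in Control 5, against 8.03 to 8.13. F5, counted among the choroid plexus genes, was 6.51 in Control 5, against 4.07 to 4.22. Cx3cr1, a microglial receptor, was 9.21 in Control 6, against 9.40 to 9.44. The mean of the centred choroid plexus genes was 2.504 in Control 5, against −0.321 to −0.093 in the other Control rats.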

How the results depend on the processing

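In 23 alternatives, 12 of which left out 1 rat, 21 of the 32 members kept the sign of their difference throughout, the 9 at an unadjusted p under 0.05 among them, and the 11 others had a main difference of at most 0.10 in size. The 9 were picked by their p in the same rats, and most alternatives reuse nearly all of those rats. Their kept signs are therefore no independent check. No member passed the adjusted threshold in any alternative except Tinagl1 without Control 5, and the count with 1 rat left out was 0 to 1. The count at an unadjusted p under 0.05 was 9, and 8 to 11 with 1 rat left out, but 14 within the second array set. That of related genes was 11 (10.1%, against 6.35% of all probe sets). Against Control 1 to 4 it was 17, with 11 higher and 6 lower, where 5.41% of all probe sets were higher and 3.71% lower. The transport median was −0.17, and −0.33 with the array set as a term or within the second set. The term and the restriction must give the same differences, since no Stress rat lay with Control 1 to 4, so they are not separate checks. Within the second set and with the term, Esam (−0.03), Tjp1 (−0.022), Mfsd2a (−0.041), Cnn1 (0.049), Notch3 (0.083), Vtn (−0.026) and Tpm2 (−0.016) reversed. Against Control 1 to 4, Flt1 (0.033), Nos3 (−0.047) and Pdgfra (0.0046) did. With 1 rat left out, signs crossed 0 for Anpep (−0.004 to 0.05), Cldn5 (−0.018 to 0.051), Des (−0.062 to 0.016), Esam (−0.034 to 0.05), Flt1 (−0.04 to 0.016), Mfsd2a (−0.0096 to 0.09), Nos3 (−0.014 to 0.061), Notch3 (−0.041 to 0.037) and Vtn (−0.034 to 0.078). The causes were not tested. Same-numbered rats of the groups correlated at −0.142 to 0.422 in their deviations, and 3 of 6 Stress rats correlated best with their own number. These values do not settle whether the numbers were pairs. The labels name no pairs, and the main comparison did not use the numbers. With the replicate block, 12 members had an unadjusted p under 0.05 (7.59% of all probe sets did), the 9 among them, and none passed the adjusted threshold. Dim genes such as Slc38a5, Robo4 and Abcg2 lie near the filter, where RMA understates differences.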
